A study of Caenorhabditis elegans with 2 samples.

Results

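The genes described here were the nuclear tRNA genes of Caenorhabditis elegans, read for their signal in a chromatin immunoprecipitation of KLF-2, which belongs to the Krüppel-like zinc-finger factors. They were all 612 genes of the tRNA class among 46890 nuclear genes in the Ensembl models of the WBcel235 genome, and each was scored by the highest signal value of any peak of the series-level ranked list with its summit inside the gene or within 100 bp of it. A gene with no such peak scored 0, and every gene of the class was kept whatever its score.

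A CRISPR insertion gave KLF-2 an EGFP and 3xFLAG tag in these worms, and the tag was recovered with an antibody to GFP from sonicated chromatin of whole mid-stage embryos, 1.5 hours old and obtained by bleaching eggs. There was 1 group of 2 biological replicates, both with the tagged allele, and no second condition. The allele is placed on chromosome II by the strain label and klf-2 on chromosome V by the annotation. The files give peaks and no read numbers, so depth is unknown, and a control was not analysed here, so scores are compared within a list only.

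Transfer RNA genes are transcribed by RNA polymerase III from a promoter that lies inside the gene. Transcription factor IIIC binds an A box near the start and a B box further in, and places factor IIIB just before the gene, where it recruits the polymerase. Many tRNA genes exist as identical copies scattered over the genome, so that such copies share their internal promoter and can differ in the DNA around them.

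The sequences below show this internal promoter for 5 sets of identical genes and for the 3 highest genes with no identical copy. The sets hold the most genes past the threshold described further on among sets with no copy on 1 chromosome, whose genes are not printed. Sets left out for that reason include some with more such genes. A set of 10 arginine genes with anticodon ACG and 1 of 8 alanine genes with UGC tied with the threonine and lysine sets at 4 such genes. These smaller sets are not printed, and their shares past the threshold were 40% and 50%. The share was 53.3% for the printed alanine set, 25% for proline and 33.3% for glutamine. It was 26.7% for threonine and 28.6% for lysine, against 33.3% of all tRNA genes. Sequences are from the RefSeq copy of WBcel235, 5′ to 3′ along the gene, and capitals mark the A box core TNGCNNAG and the B box core GNTCNANNC. Each set is shown by its highest gene. ZK622.t1 lies at chrII:5292332-5292403 on the plus strand, F46G11.t2 at chrX:5801211-5801282 on the minus strand, R04A9.t1 at chrX:410391-410462 on the plus strand, ZK563.t1 at chrX:3371422-3371493 on the minus strand and C33G3.t2 at chrX:14063946-14064018 on the minus strand. The single-copy genes are C04A11.t1 at chrX:13665555-13665673 on the plus strand, F57F5.t1 at chrV:12002176-12002260 on the plus strand and K09A11.t1 at chrX:13264683-13264766 on the minus strand.
ZK622.t1, alanine, 15 copies: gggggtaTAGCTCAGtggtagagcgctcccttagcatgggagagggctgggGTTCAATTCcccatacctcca
F46G11.t2, proline, 24 copies: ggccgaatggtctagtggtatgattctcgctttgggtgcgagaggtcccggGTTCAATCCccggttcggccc
R04A9.t1, glutamine, 15 copies: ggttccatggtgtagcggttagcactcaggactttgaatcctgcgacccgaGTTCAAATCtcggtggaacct
ZK563.t1, threonine, 15 copies: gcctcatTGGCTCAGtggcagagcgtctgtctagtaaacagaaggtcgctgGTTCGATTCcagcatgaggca
C33G3.t2, lysine, 14 copies: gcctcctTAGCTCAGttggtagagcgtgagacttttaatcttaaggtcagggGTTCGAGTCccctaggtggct
C04A11.t1, leucine, single copy: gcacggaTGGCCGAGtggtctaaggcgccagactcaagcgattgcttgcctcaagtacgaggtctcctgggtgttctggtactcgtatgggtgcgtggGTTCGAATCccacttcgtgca
F57F5.t1, isoleucine, single copy: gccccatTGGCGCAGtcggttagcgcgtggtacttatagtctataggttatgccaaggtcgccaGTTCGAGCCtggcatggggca
K09A11.t1, tyrosine, single copy: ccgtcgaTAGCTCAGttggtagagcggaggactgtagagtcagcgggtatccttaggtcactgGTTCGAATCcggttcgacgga
The proline and glutamine sequences hold the B box core and not the exact A box core, which says only that those letters are not in them.

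Most tRNA genes had a KLF-2 peak, and many of these peaks were weak. A ranked peak was found at 437 of 612 genes (71.4%, 95% exact binomial interval 67.6 to 75%), against 29.3% of 368647 consecutive windows of 272 bp over the genome, the length of a median gene of 72 bp with 100 bp on each side. In the thresholded list, which keeps the peaks that pass the authors' irreproducible discovery rate (IDR) cut, 204 genes had a peak (33.3%, interval 29.6 to 37.2%), against 0.278% of the windows. The IDR scores how well a peak keeps its rank between replicates. The thresholded list holds 1032 of the 111583 ranked peaks and is more than such a cut, since it derives from 1 further file, whose effect is not given in the sources used here. Of the 100 highest ranked peaks, 60 are not in it. All 13 of those 100 that lay at a tRNA gene are in it, against 27 of the other 87, and at ranks 101 to 500 it has all 113 at tRNA genes, against 205 of the other 287. The part of this step in the contrast between tRNA genes and windows was not tested. Windows that touch no tRNA gene or its flanks had a ranked peak more often where G and C were frequent. Their share was 23.5% with under 37% G and C and 51.8% with 49% or more. The tRNA genes, without their flanks, had a median of 58.3% G and C. The part of base composition in the contrast was not tested either. A further 233 genes had a ranked peak outside the thresholded list, called ranked only below, and 175 (28.6%) scored 0. The intervals cover the counting of genes only.

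The same contrast held against other genes when the summit was required within 100 bp of the 5′ end. Of the tRNA genes, 66.7% had a ranked and 32.7% a thresholded peak there, against 19.7% and 0.698% of 46278 other nuclear genes. Among other short RNA classes, snoRNA genes, whose products guide chemical modification of RNA, had 44.5% and 15.3%, snRNA genes had 20.2% and 4.65%, and piRNA genes had 9.15% and 0.00651%. Only 0.389% of the 111583 ranked peaks lay at a tRNA gene, but the share was 13% of the 100 highest, 28.25% of the peaks ranked 101 to 500, 12.8% of those ranked 501 to 1000, 1.2% of those ranked 2001 to 5000 and 0.104% of those ranked beyond 50000.

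The weak peaks stood above most weak peaks elsewhere. Genes past the IDR cut had a median score of 133.7 and a range of 67.8 to 506.1. Ranked-only genes had a median of 40.9 and a range of 3.45 to 95.2, with quartiles of 25.5 and 55.2. All ranked peaks outside the thresholded list had a median of 23.6 and an upper quartile of 34.3. Of the 233 ranked-only genes, 181 (77.7%) lay above that median of 23.6. At the boundary, the lowest genes inside the thresholded list were F02E11.t1 (67.8), ZK154.t3 (70.1) and C06B8.t3 (71.8), and the highest outside it were F10C1.t2 (95.2), R11B5.t1 (86.5) and R02E12.t1 (84.3), so the ranges overlapped.

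The leading gene was C04A11.t1, the single-copy leucine gene with anticodon CAA printed above, with a score of 506.1 and the peak of rank 43 in the list. Its values in the replicates were 276.1 in replicate 1 and 227.3 in replicate 2, the highest of any tRNA gene in each. F15G9.t1, an alanine gene on X, followed with 407.8 (181.7 in replicate 1 and 220.4 in replicate 2). W03G11.t1, a lysine gene on X, had 368.3 (175.8 in replicate 1 and 196.8 in replicate 2). Each of the 10 highest genes had at least 148.6 in replicate 1 and 151.03 in replicate 2, so none of them rested on 1 library. The others of the 10 were T21B4.t1 (isoleucine, chromosome II, 362.9), B0523.t1 (tryptophan, III, 359.4), ZC455.t1 (serine, V, 344.9), F17H10.t1 (glycine, X, 342.6), C02B4.t2 (tyrosine, X, 335.8), T07H6.t2 (alanine, X, 324.0) and F57F5.t1 (isoleucine, V, 323.5). The 10 genes belong to 8 isotypes.

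Replicate lists were read separately, since their signal values are not normalized to each other. A ranked peak was found at 376 tRNA genes (61.4%) in replicate 1, against 16.6% of the windows, and at 370 (60.5%) in replicate 2, against 13.2%. Both replicates had a peak at 311 genes, 65 genes had one in replicate 1 only, 59 in replicate 2 only and 177 in neither. The genes seen in 1 replicate were weak, with medians of 22.2 in replicate 1 and 25.3 in replicate 2, against 51.3 and 46.4 in the same lists for genes seen in both. Over all 612 genes the scores had a Spearman rho of 0.802 and a Pearson r of 0.710 on log2(score + 1). The points share the annotation and, per the deposited notes, a further file from which both lists derive, and genes at 0 in both lists add to these values. Among the 204 genes past the cut rho was 0.752, and among the 233 ranked-only genes it was 0.242. The IDR picks peaks that keep their rank between these same replicates, so that the difference between these values is built into the classes.

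**Figure D1:**
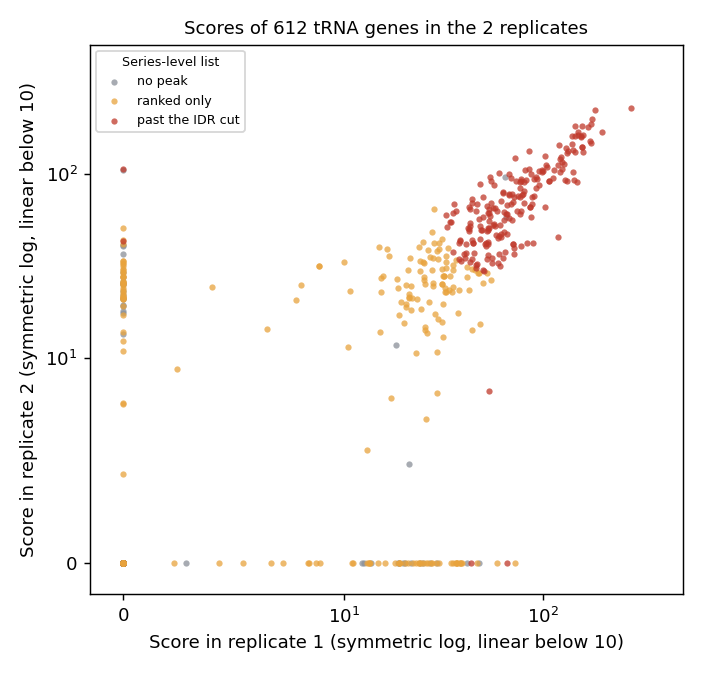
Score of each of the 612 tRNA genes in replicate 1 (horizontal axis) and replicate 2 (vertical axis), in signal-value units on symmetric log axes, coloured by status in the series-level lists. The genes past the IDR cut run along the diagonal up to 276.1 and 227.3, whereas many ranked-only genes lie on an axis with a peak in 1 replicate.

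The same holds for the number of replicates with a peak: 200 of the 204 genes past the cut (98%) had a ranked peak in both, against 107 of the 233 ranked-only genes (45.9%). Another 39 ranked-only genes had none within 100 bp in either replicate's own list. Of the 175 genes that scored 0, 37 had a peak in at least 1 replicate and 4 in both, which left 138 genes (22.5%) with no peak in any of the 3 ranked lists. The largest disagreements were C53C7.t2, a serine gene listed at 0 in replicate 1 and at 105.9 in replicate 2, and Y22D7AL.t3, a methionine gene at 0 and 104.8. Both zeros go with a strong peak just beyond the limit of 100 bp. The summit nearest to C53C7.t2 in replicate 1 was 114 bp away, with a signal of 117.9, and was counted for C53C7.t1, a tRNA gene at 130 bp. The summit nearest to Y22D7AL.t3 was 104 bp away in replicate 1, with a signal of 98.5, and 97 bp away in replicate 2, and both were also within the limit of Y22D7AL.t4, a tRNA gene at 48 bp. In the opposite direction F42F12.t1, a leucine gene, had 71.8 in replicate 1 and 0 in replicate 2, where the nearest summit was 282 bp away.

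The summit lay inside the gene, early in it. Past the IDR cut, the median summit was 19 bp from the 5′ end (quartiles 5.75 and 35.25 bp), 159 of 204 summits (77.9%) were inside the gene, 38 (18.6%) before it and 7 (3.43%) after it. Among ranked-only genes the median was 23 bp, and 51.5% of the summits were inside, 28.3% before and 20.2% after, so the weak peaks were spread more widely. Among the 50 highest genes 44 (88%) had the summit inside and none had it after the gene. The median lies between the starts of the A box core, at base 8, and the B box core, at base 53. It was 20 bp for genes on the plus strand and 18 bp for genes on the minus strand, so it followed the direction of transcription.

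**Figure D2:**
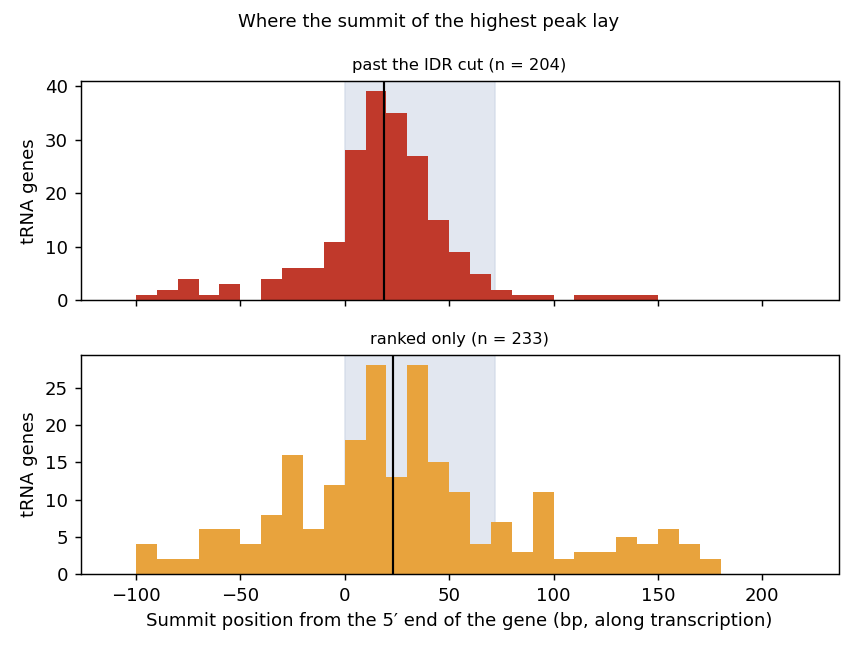
Number of tRNA genes by position of the summit of their highest peak, in bp from the 5′ end along transcription in bins of 10 bp, for genes past the IDR cut (upper panel) and ranked-only genes (lower panel). Shading marks the median gene length of 72 bp and the black lines the medians, 19 bp and 23 bp; the upper distribution is the narrower.

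The letters of the internal promoter cores were about as frequent in genes with a peak as in genes without. The B box core was in 98.5% of all tRNA genes, which leaves almost no genes without it to compare, and in 99.5% of the genes past the cut, 97.9% of ranked-only genes and 98.3% of genes at 0. The A box core was in 44.1%, 45.9% and 40.6%. The share past the cut was 33.8% with both cores (90 of 266) and 33.5% with the B box core only (113 of 337). Among genes with no identical copy it was 27.0% with both cores (17 of 63, interval 16.6 to 39.7%) and 16.9% with the B box core only (12 of 71, interval 9.05 to 27.7%). In the thresholded lists of the replicates these shares were 20.6% with both cores and 7.04% with the B box core only in replicate 1, and 15.9% and 5.63% in replicate 2. An exact match of letters is not a measure of promoter strength. Over genome windows of 72 bp, searched on both strands, the A box core was in 6.53%, the B box core in 6.74% and both in 0.523%, and the cores do not overlap each other in the genes printed above. A run TTTT, the signal at which RNA polymerase III stops, was in the 20 bases after the gene, on its strand, in 99.5% of the genes past the cut, 98.7% of ranked-only genes and 96.6% of genes at 0, against 25.7% of genome windows of 20 bases.

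Identical genes had very different scores. The 612 genes have 200 distinct sequences, of which 57 occur in 2 or more genes and cover 469 genes (76.6%). Among the 32 sets of at least 5 identical genes, all 32 had a gene past the IDR cut, 30 also had a gene at 0, and none had all of its genes past the cut. Over all tRNA genes 33.3% were past the cut and 28.6% at 0. Many sets of this size would thus hold both kinds if their genes were like tRNA genes at large. The largest set, 29 glycine genes with anticodon UCC, had 14 genes past the cut and 6 at 0, with a median of 69.5 and a highest score of 297.8 at M02F4.t1, whose peak is shared with the nearby glutamate gene M02F4.t2. In all, 16 tRNA genes shared their highest peak with another. The 25 lysine genes with CUU had 9 past the cut and 3 at 0, from 0 at K01A11.t1 to 368.3 at W03G11.t1. The 24 proline genes with UGG had 6 past the cut and 6 at 0, and a highest score of 250.6 at F46G11.t2. The 21 aspartate genes with GUC had 10 past the cut and 6 at 0, with 313.1 at F38G1.t2 and 0 at C06G1.t3. Sets with no gene at 0 were the 15 glutamate genes with UUC and 9 methionine genes of 73 bases with CAU. The glutamate set had 9 genes past the cut, a median of 99.7 and a lowest score of 22.6. The methionine set had 4 past the cut, a median of 46.4 and a lowest score of 4.99. In the replicates' own thresholded lists, 1 of all 17 glutamate genes with UUC was past the cut in replicate 1 and 8 in replicate 2.

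**Figure D3:**
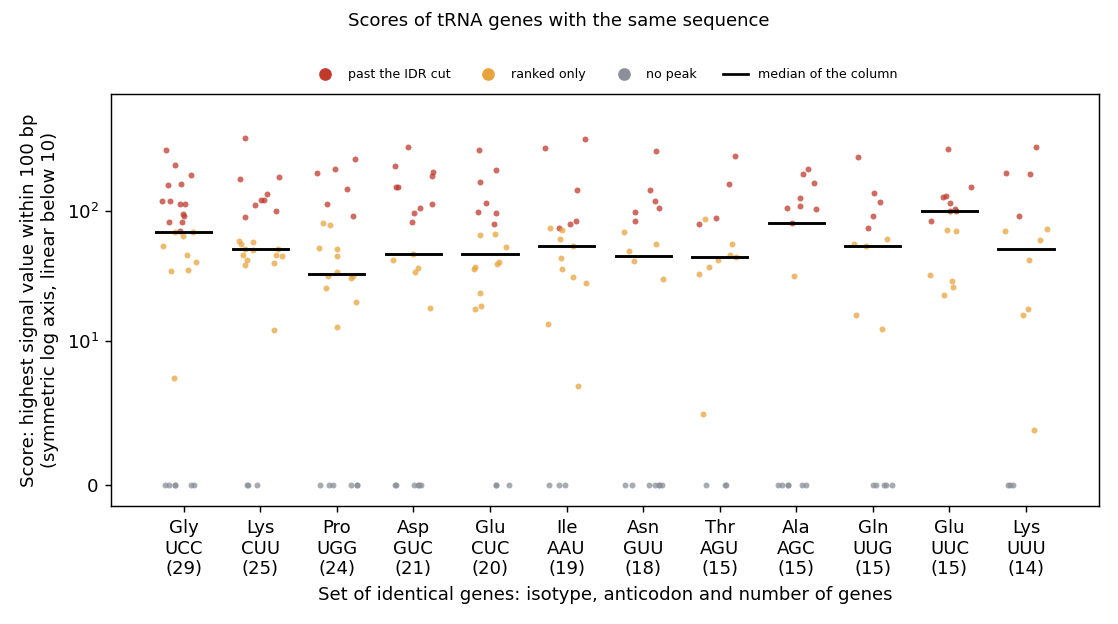
Score of each gene in the 12 largest sets of identical tRNA genes, in signal-value units on a symmetric log axis, coloured by status, with the set's median as a line. Most sets run from 0 to scores over 200, and 11 of the 12 sets hold both genes past the IDR cut and genes at 0.

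Sharing a sequence brought scores hardly closer. When the scores were turned into percentiles among the 612 genes, the median difference between identical genes was 28.6 percentile points (2987 pairs), against 29.1 between genes of the same isotype with another sequence, 29.4 between genes of different isotypes and 29.4 over all pairs. The same gene differed by a median of 3.76 points between replicate 1 and replicate 2, over all 612 genes. The median between identical genes was the larger, but these medians are not of like kind. The 177 genes with a peak in neither replicate are tied in each list, hardly differ by construction and pull the replicate median down. Identical genes were compared by their series-level scores and not within a replicate. Reads from inside identical genes cannot be told apart by sequence, and how the authors placed them is not given in the sources used here, so the part of read placement in these differences was not tested.

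High and low copies of the same gene are identical inside, so sequence can differ between them only outside the gene. The 50 bases upstream of the highest and the lowest copy are shown for the 3 sets printed above whose lowest copy had no peak in any ranked list, the lowest copy being the first by name where several were at 0. The lysine copies are C33G3.t2 (score 314.3, upstream bases chrX:14064019-14064068, minus strand) and C25F6.t4 (score 0, chrX:5451277-5451326, minus strand). The threonine copies are ZK563.t1 (267.9, chrX:3371494-3371543, minus strand) and F43E12.t1 (0, chrX:7177055-7177104, minus strand). The glutamine copies are R04A9.t1 (260.4, chrX:410341-410390, plus strand) and C05E7.t1 (0, chrX:12937651-12937700, plus strand).
C33G3.t2, high: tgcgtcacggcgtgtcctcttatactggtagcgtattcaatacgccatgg
C25F6.t4, at 0: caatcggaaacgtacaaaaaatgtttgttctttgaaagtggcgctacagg
ZK563.t1, high: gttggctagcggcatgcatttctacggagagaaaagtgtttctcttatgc
F43E12.t1, at 0: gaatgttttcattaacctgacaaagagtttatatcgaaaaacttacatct
R04A9.t1, high: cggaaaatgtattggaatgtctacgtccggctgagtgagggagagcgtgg
C05E7.t1, at 0: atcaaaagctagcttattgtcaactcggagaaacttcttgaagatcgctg
G and C made up 52% of the upstream bases at C33G3.t2 and 40% at C25F6.t4, 46% at ZK563.t1 and 28% at F43E12.t1, and 54% at R04A9.t1 and 40% at C05E7.t1. In the other 2 printed sets, whose lowest copy had a peak in 1 replicate, it was 44% at F46G11.t2 and 30% at C48C5.t1 for proline, and 40% at both ZK622.t1 and C11E4.t1 for alanine. Several copies were at 0 in each set, and their upstream G and C content overlapped that of the genes past the cut in 4 of the 5 sets. The range was 46 to 52% for the 4 lysine genes past the cut and 30 to 58% for the 3 at 0, of which F18C5.t1, at 58%, had 64.9 in replicate 1 and 58.4 in replicate 2. The range was 42 to 54% for the 4 threonine genes past the cut and 22 to 32% for the 3 at 0. For glutamine it was 38 to 54% past the cut and 28 to 46% at 0, for proline 34 to 46% and 26 to 42%, and for alanine 38 to 54% and 32 to 50%.

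Over all genes the score followed the base composition before the gene and not after it. The 50 bases upstream had a median of 46% G and C at genes past the cut, 42% at ranked-only genes and 38% at genes at 0. The share of genes past the cut was 11.5% (20 of 174, interval 7.16 to 17.2%) where these bases had 36% G and C or less, 26.8% (38 of 142) at 38 to 42%, 46.8% (66 of 141) at 44 to 48% and 51.6% (80 of 155, interval 43.5 to 59.7%) at 50% or more. The 50 bases downstream had a median of 26% in all 3 classes of genes. A TTTT run lay in the first 20 of them in 98.4% of genes, and they lie farther from the median summit than the upstream bases do. The part of these differences was not tested. In the replicates' own thresholded lists the lowest class of upstream G and C content had 7.47% in replicate 1 and 6.32% in replicate 2. The highest class had 35.5% and 33.5%. Spearman's rho with the score was 0.419 upstream and 0.0786 downstream over 612 genes of the same libraries, and 0.407 in replicate 1 and 0.391 in replicate 2 for the upstream bases. In 26 of the 30 sets of at least 5 identical genes with both kinds, the genes past the cut had a higher median upstream G and C content than the genes at 0, with a median over sets of 45.5% for genes past the cut and 38% for genes at 0.

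The rise with upstream G and C content was seen on X, with 11.2% of genes past the cut in the lowest class and 60.9% in the highest, and on autosomes, with 11.8% and 47.7%. It was also seen among the 548 genes whose flanks of 100 bp are wholly unique in the genome at 36 bases, with 12.7% and 54.2%. Among the 211 genes with the nearest other tRNA gene 20000 bp or more away, the rise did not reach the highest class. Their shares were 20.5%, 37.5%, 60.3% and 47.8% from the lowest class to the highest. The thresholded list held more G and C-rich DNA away from tRNA genes as well: of windows of 272 bp that touch no tRNA gene or its 100 bp flanks, 0.0770% with under 37% G and C had a thresholded summit, 0.276% with 37 to under 43%, 0.554% with 43 to under 49%, and 1.68% with 49% or more. The part that base composition of the libraries had in the pattern at tRNA genes was not tested.

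Genes in tight clusters scored lower than isolated ones. The share past the cut was 22.9% (39 of 170, interval 16.9 to 30%) where another tRNA gene lay under 500 bp away, 31.0% (48 of 155) at 500 to under 5000 bp, 32.9% (25 of 76) at 5000 to under 20000 bp and 43.6% (92 of 211, interval 36.8 to 50.6%) at 20000 bp or more. The median scores were 28.6, 43.8, 44.4 and 61.4 in the same order. On X the share was 20.4%, 29.6%, 40.6% and 50.8% from the closest class to the farthest. On autosomes it was 27.4%, 32.1%, 27.3% and 40.4%, with no steady rise. The autosomal intervals of the closest class (16.9 to 40.2%) and the farthest (32.4 to 48.8%) overlapped. In the replicates' thresholded lists the closest and farthest classes of all genes had 15.9% and 28.9% in replicate 1, and 14.7% and 31.8% in replicate 2. The farthest class minus the closest, 20.7 percentage points, was 13.03 in replicate 1 and 17.05 in replicate 2, and it was 13.6 when summits within 200 bp were counted. Upstream G and C content moved with this distance, with medians of 38%, 42%, 43% and 46% over the 4 classes, and its part was not tested.

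**Figure D4:**
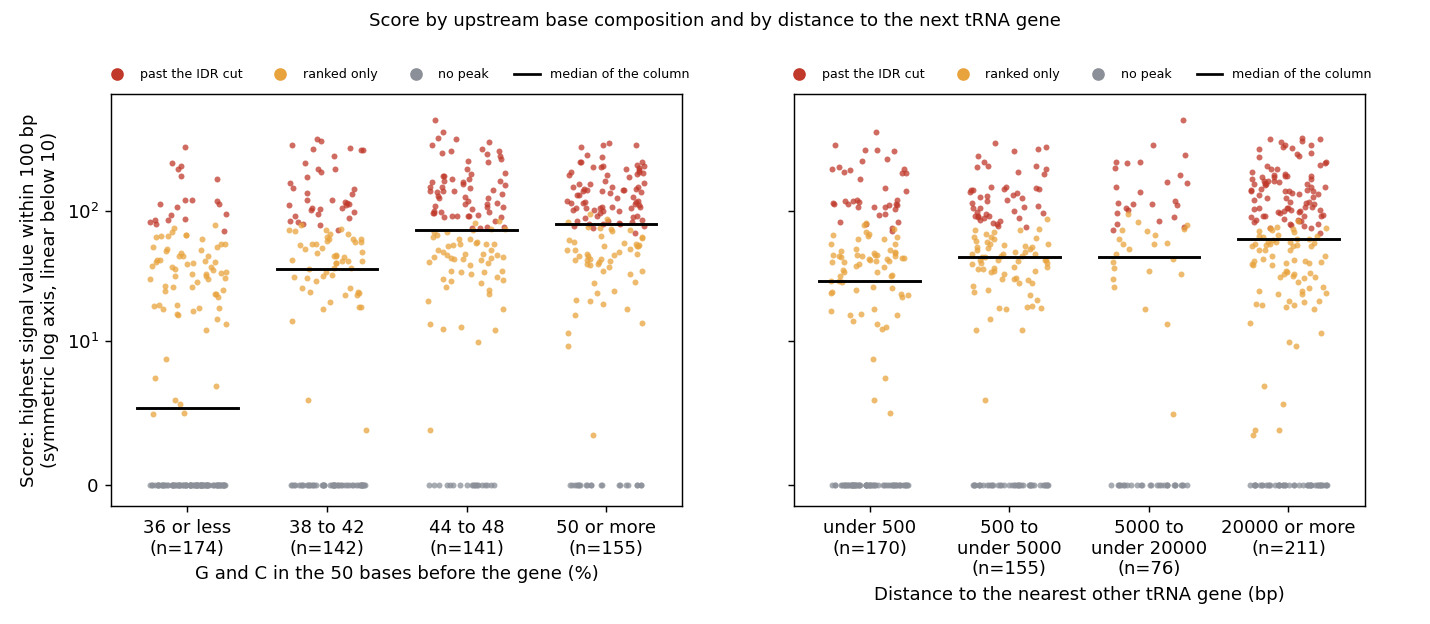
Score of each tRNA gene in signal-value units on a symmetric log axis, by the G and C content of the 50 bases before it (left panel, %) and by the distance to the nearest other tRNA gene (right panel, bp), coloured by status, with the median of each column as a line. The share of genes past the IDR cut is 11.5% in the leftmost and 51.6% in the rightmost column of the left panel, and 22.9% and 43.6% in those of the right panel.

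Genes with identical copies more often had a peak past the cut than genes without. The share was 37.1% (174 of 469, interval 32.7 to 41.6%) for genes with at least 1 identical copy and 21.0% (30 of 143, interval 14.6 to 28.6%) for single-copy genes, and the shares with any ranked peak were 72.7% and 67.1%. There was no steady rise with the number of copies: 37.3% of genes in sets of 2 to 4, 32.9% in sets of 5 to 9, 37.9% in sets of 10 to 19 and 38.7% in sets of 20 or more were past the cut. Peaks at repeated sequence depend on how reads with several matches are handled. None of the 23 tRNA genes with every stretch of 36 bases unique was past the cut (exact upper limit 14.8%), although 11 of them had a ranked peak. At the other end, 1 of 46 genes (2.17%) was past the cut where at most 70% of the stretches in the gene and its flanks were unique, and none of 21 where at most 50% of those in the flanks were.

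The share of tRNA genes with a peak was similar on X and on autosomes. X carries 45.1% of the tRNA genes on 17.7% of the bases, and it held 43.7% of the genes with a ranked peak and 43.6% of those past the cut. Past the cut were 89 of 276 genes on X (32.2%, interval 26.8 to 38.1%) and 115 of 336 on autosomes (34.2%, interval 29.2 to 39.6%), with median scores of 41.4 on X and 45.0 on autosomes. In the replicates' own thresholded lists the order was the other way, with 24.3% on X and 19.9% on autosomes in replicate 1 and 26.8% and 19.05% in replicate 2. Among the autosomes the shares ran from 28.2% on V and 31.6% on II through 33.8% on IV and 37.5% on III to 40.9% on I, with intervals that overlapped.

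**Figure D5:**
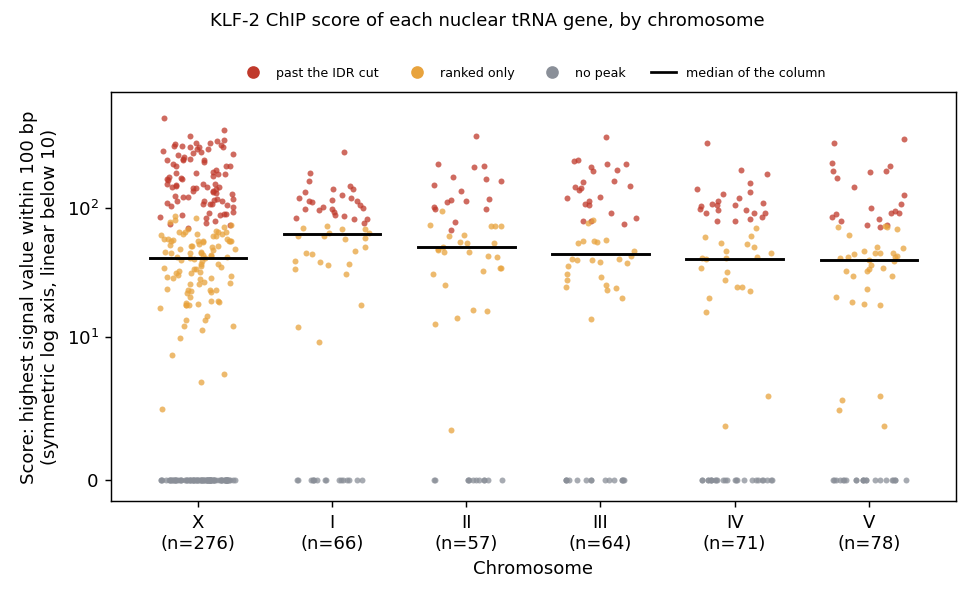
Score of each of the 612 tRNA genes by chromosome, in signal-value units on a symmetric log axis, coloured by status, with the median of each chromosome as a line. The medians lie between 39.5 on V and 62.8 on I, within a spread of scores that starts at 0 and passes 200 on every chromosome.

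Genes inside and outside host genes had shares with overlapping intervals. Of 283 genes in an intron of a protein-coding gene, 74.6% had a ranked peak and 31.4% (interval 26.1 to 37.2%) a peak past the cut, against 69.0% and 34.5% (interval 29.3 to 39.98%) of 319 intergenic genes. Within introns 29.4% of 160 genes on the strand of the host and 34.4% of 122 on the opposite strand were past the cut. Of the 10 genes that overlap an exon, 5 were past the cut. The tRNA genes inside a promoter window, taken from 1000 bp before to 500 bp after a transcript start of a protein-coding gene, were past the cut in 36.5% of 170 cases, against 32.1% of 442 outside every such window.

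All 20 standard isotypes had genes past the cut. The shares were highest for cysteine (7 of 13, 53.8%), aspartate (44.4%), alanine (44.1%), glutamate (43.9%) and glycine (23 of 55, 41.8%), and lowest for tryptophan (2 of 12, 16.7%), histidine (25%), glutamine (25.9%) and proline (26.2%). With interval bounds of 25.1 to 80.8% for cysteine and 2.09 to 48.4% for tryptophan, even the ends of this order overlapped. Replicate 1 did not share the place of glutamate, with 4 of 41 genes past the cut in its own thresholded list (9.76%), against 12 of 41 (29.3%) in replicate 2, where 21.9% and 22.5% of all tRNA genes were past it. Cysteine had 38.5% in replicate 1 and 53.8% in replicate 2, and tryptophan 16.7% in each. Ranked peaks were most common at tyrosine (89.5%) and glutamate genes (87.8%). Of the glutamate genes, 10 of 17 with UUC (interval 32.9 to 81.6%) and 8 of 24 with CUC (interval 15.6 to 55.3%) were past the cut. The order turned round in replicate 1, with 1 of 17 and 3 of 24, and was kept in replicate 2, with 8 of 17 and 4 of 24. None of the 3 glycine genes with CCC had any peak, where a median of only 29.8% of the stretches in and around the gene were unique. The single selenocysteine gene, K11H12.t1, scored 3.77, with 18.1 in replicate 1 and 0 in replicate 2. Of the 5 genes with no isotype in the annotation, 2 had a ranked peak and none was past the cut.

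Pseudogenes that resemble tRNA genes rarely passed. Of 209 pseudogenes named in the tRNA series, 96 (45.9%) had a ranked peak and 6 (2.87%, interval 1.06 to 6.14%) were past the cut, against 33.3% of the tRNA genes. The highest was D1046.t1 at chrIV:8927200-8927273 on the plus strand, in an intron and inside a promoter window as taken above, with a score of 317.8 (155.0 in replicate 1 and 161.8 in replicate 2), and every stretch of 36 bases in and around it is unique. It is shown as the highest of the 6, below the 10 highest tRNA genes, with the same 2 cores in capitals. Its match to the A box core starts at base 21, against base 8 in the printed tRNA genes that hold this core.
D1046.t1, pseudogene: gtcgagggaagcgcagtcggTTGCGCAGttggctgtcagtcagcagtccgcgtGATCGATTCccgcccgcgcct
The second, Y94H6A.t1, had 287.1 (145.5 in replicate 1 and 137.6 in replicate 2), but only 30.3% of the stretches in and around it are unique. The A box core was in 66.5% of the pseudogenes and 43.8% of the tRNA genes, and the B box core in 79.4% and 98.5%. Neither core was found in 36 of the 209 pseudogenes and 7 of the 612 tRNA genes. Of the 132 with both cores 5 were past the cut, against 90 of 266 tRNA genes with both. The TTTT run followed 91.9% of the pseudogenes. Their summits were less centred, with 34.4% of those of the 96 inside the pseudogene. A median of 99.6% of the stretches of 36 bases in and around the pseudogenes were unique, against 79.7% for the tRNA genes. Past the cut were 16 of the 71 tRNA genes with over 90% unique (22.5%), and none of the 23 with every stretch of the gene unique. The part of uniqueness in the contrast was not tested.

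Few protein-coding genes of the RNA polymerase III apparatus and of tRNA processing had a thresholded peak, too few to tell their share from that of all protein-coding genes. Of 45 listed genes 40 were matched, and 2 (5%) had a thresholded peak in their promoter window, against 3.06% of 19973 protein-coding genes, while 31 (77.5%) had a ranked peak, against 77.9%. The genes with a thresholded peak were rpac-19, which encodes a subunit shared by RNA polymerases I and III, with 79.7 (41.6 in replicate 1 and 44.9 in replicate 2), and elpc-4, which encodes a subunit of the Elongator complex that modifies tRNA, with 62.9 (40.01 in replicate 1 and 35.2 in replicate 2). None of the 3 matched TFIIIC genes and neither of the TFIIIB genes had one.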

How the data were processed

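The authors deposited peak lists of each replicate and of both together, in ce11 coordinates per the labels. Each peak has a signal value from their peak caller and, in the ranked lists, a score that is −log10 of the global IDR, deposited with a cap. Not given in the sources used here are the peak caller, the aligner, their versions and the treatment of reads with several matches. The thresholded lists derive from 1 further file than the ranked lists, per the deposited notes.

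Gene models were from Ensembl release 115 and sequence and isotypes from RefSeq, both WBcel235, joined by WormBase ID (612 of 612 matched; 22 mitochondrial genes were left out). Anticodons were read from the gene sequence and coded for the given isotype in 598 genes. Genes are identical when their annotated sequences are the same. Uniqueness was the share of 36-base stretches found once in the genome on either strand. Intervals are exact 95% binomial (Clopper-Pearson) intervals and cover counting only; no test between conditions was possible with 1 group, and no p-value was computed. The scoring returned every peak planted within 100 bp of a gene on simulated data. Peaks were planted only beside tRNA genes far from any other, so peaks near several tRNA genes were not tried. Named genes were the 10 highest, the extremes of the largest identical sets, the highest per chromosome and isotype, those at the thresholds and those that differed most between replicates. The members, lists and groupings were chosen with earlier results of these data known. The base composition and TTTT runs beside the genes, the upstream sequences and the pseudogene sequence were added after the scores had been seen. Python 3.11.15, pandas 2.3.3 and scipy 1.17.1 were used.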

Additional observations from a re-analysis of the deposited data

How the results depend on the processing

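No paired analysis was possible because there was 1 group. Of 88 alternative values, 45 kept within the spread of the replicates or the 1.5 times allowed for a count. With each sequence counted once, by the median score of its copies, 145 of 200 had a ranked peak and 49 were past the IDR cut. From 1 replicate's own lists, 134 to 138 genes were past the cut and 370 to 376 had a ranked peak. The share past the cut on X minus that on autosomes, −1.98 percentage points, had no stable sign: 4.33 to 7.76 from 1 replicate, −7.99 with 1 gene per sequence and 4.11 without genes that have another within 500 bp. Intron minus intergenic, −3.03 points, was 0.0210 with summits within 50 bp, −4.44 within 200 bp, −1.82 with each peak given to the nearest gene, −0.309 to −0.0354 from 1 replicate, −0.0133 with the other series-level lists, −15.1 with 1 gene per sequence, −4.19 for genes with unique flanks and −3.91 without close neighbours. Copied minus single-copy genes, 16.1 points, was positive in every alternative: 12.1 to 15.7 from 1 replicate, 12.4 with 1 gene per sequence and 20.1 without close neighbours. The median summit, 19 bp, was 20 bp within 50 bp, 18 bp within 200 bp, 18.5 bp for peaks that overlap the gene, 18 to 18.5 bp from 1 replicate and 20 bp without close neighbours. Upstream G and C content of 50% or more minus 36% or less, 40.1 points, was 39.3 with summits within 50 bp, 36.7 within 200 bp, 39.0 for overlapping peaks, 27.2 to 28.0 from 1 replicate, 37.03 with the other series-level lists, 41.5 with unique flanks and 41.2 without close neighbours. Farthest minus closest neighbours, 20.7 points, was 24.1 within 50 bp, 13.6 within 200 bp, 24.2 with each peak given to the nearest gene, 13.03 to 17.05 from 1 replicate and 23.7 with unique flanks. The RNA polymerase III list had 1 gene with the other thresholded list, 1 in a narrower promoter window and 0 to 0 from 1 replicate, where 3.05%, 2.07% and 1.29 to 1.52% of all protein-coding genes had such a peak. The cause of these shifts was not tested. The alternatives on unique flanks and close neighbours, and all those of base composition and neighbour distance, were chosen after seeing the data, except the summit's position without close neighbours, which was planned. The lowest −log10 global IDR in the thresholded list was 2.03, so a cut at a global IDR of 0.01 was no stricter than the list. Its 204 genes were thus fixed in advance, and this value is counted among the 45. Depth is unknown, so a score of 0 is no sign that KLF-2 was absent.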
